A study of Mus musculus with 20 samples.

Results

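Microglia, the resident macrophages of the brain, were followed here through 10 genes: Aif1, Cx3cr1, P2ry12, Tmem119, Csf1r, C1qa, C1qb, C1qc, Trem2 and Tyrobp. They were found by gene symbol among the 45700 genes of the deposited table, each on a single row. All 10 were among the 15247 genes tested and none was listed at 0 in any of the 20 libraries. The libraries came from whole brains of “Taiwanese” SMA mice (Smn-/-; SMN2tg/0), which lack murine Smn and carry 2 copies of the human SMN2 gene on 1 allele, and from phenotypically normal littermates with 1 functional Smn allele and the same transgene (Smn-/+; SMN2tg/0), all on a congenic FVB background. Brains came from 2 mice of each genotype on postnatal day 5, when SMA mice are early-symptomatic, and from 3 of each on day 7, when they are late-symptomatic. For each mouse number total cytoplasmic RNA, the transcriptome, and RNA of the pooled polysomal fractions, the translatome, were sequenced. Values are FPKM, fragments scaled by transcript length and by the fragments mapped in the library, so levels can be compared between genes. The table holds no counts, and the depth behind a single value is unknown.

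Microglia survey the postnatal brain and take up dying cells and synapses. C1qa, C1qb and C1qc encode the chains of C1q, the recognition molecule that starts the classical complement pathway and, in the brain, is made mainly by microglia and tags synapses for removal. Trem2 is a lipid-sensing receptor that signals through the adaptor DAP12, the product of Tyrobp, and Csf1r is the receptor for the survival factors CSF1 and IL-34. Cx3cr1 is the receptor for neuronal fractalkine, P2ry12 the ADP receptor that guides microglial processes, Tmem119 a membrane protein used as a marker of mature microglia, and Aif1 encodes the actin-binding protein IBA1. In whole-brain RNA, fewer microglia and less RNA per microglial cell cannot be told apart.

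The C1q genes lie side by side on the minus strand of chromosome 4 within 18675 bases (GRCm38), C1qb at chr4:136880129-136886187, C1qc at chr4:136889804-136893065 and C1qa at chr4:136895917-136898803. P2ry12 lies at chr3:59216272-59262871, Tmem119 at chr5:113793729-113800516, Tyrobp at chr7:30413760-30417585, Cx3cr1 at chr9:119901616-120069879, Aif1 at chr17:35170991-35176068 and Trem2 at chr17:48346401-48354147. P2ry12, Cx3cr1 and Csf1r overlap genes on the opposite strand (Med12l for P2ry12, Wdr48 and others for Cx3cr1, Hmgxb3 for Csf1r), and the aligner and quantifier were run at default settings, which do not use strand, so reads of such partners cannot be told apart from theirs. Over the 20 libraries Med12l had a mean of 7.07 FPKM, beside 16.4 FPKM for P2ry12, and Hmgxb3 10.1 FPKM, beside 11 FPKM for Csf1r. Wdr48 had 17.5 FPKM, and Gorasp1, which overlaps Cx3cr1 on the same strand, 10.5 FPKM, beside 9.14 FPKM for Cx3cr1. The part of these partners in the values was not tested. The other 7 genes overlap no annotated gene.

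The 250 bases before the RefSeq start site (GRCm38.p6) are shown for C1qb, at chr4:136886201-136886450 on the minus strand, because C1qb had the largest late-symptomatic change of the 10 genes in each fraction. Those of Trem2, at chr17:48346151-48346400 on the plus strand, are shown as a gene of the same cells without such a change. Capitals mark GAGGAA or its reverse complement TTCCTC, the core letters of sites bound by PU.1, a transcription factor of the macrophage lineage.
C1qb: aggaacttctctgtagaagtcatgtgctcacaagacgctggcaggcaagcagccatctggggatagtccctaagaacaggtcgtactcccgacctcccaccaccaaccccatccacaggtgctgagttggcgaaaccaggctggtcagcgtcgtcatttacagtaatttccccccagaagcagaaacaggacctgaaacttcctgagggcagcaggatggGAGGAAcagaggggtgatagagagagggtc
Trem2: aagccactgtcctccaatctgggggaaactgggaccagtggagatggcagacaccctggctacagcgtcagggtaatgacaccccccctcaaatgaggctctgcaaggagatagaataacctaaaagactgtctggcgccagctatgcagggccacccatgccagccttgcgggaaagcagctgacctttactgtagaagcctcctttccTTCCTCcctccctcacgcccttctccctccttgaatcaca
The letters occur once in each window, starting 30 bases before the start site in C1qb and 40 bases before it in Trem2. They are found on either strand in 7639 of 32851 promoter windows of this length (23.3%), so a match is a description and not a site. RefSeq windows were at hand for 6 of the 10 genes, and 4 of these 6 hold the letters.

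Averaged over the 20 libraries, Tyrobp had the highest level at 28.3 ± 9.10 FPKM (SD), followed by C1qa at 22.1 ± 5.82 FPKM, P2ry12 at 16.4 ± 6.78 FPKM and Aif1 at 15 ± 2.06 FPKM. C1qb (13.2 ± 3.82 FPKM), C1qc (12.8 ± 3.73 FPKM), Csf1r (11 ± 2.03 FPKM) and Cx3cr1 (9.14 ± 2.07 FPKM) formed the middle of the order. Trem2 (4.90 ± 0.846 FPKM) and Tmem119 (3.51 ± 1.01 FPKM) were lowest. The intervals of mean ± SD of neighbours in this order overlapped, except those of Cx3cr1 and Trem2. The widest span was that of P2ry12, from 6.65 to 28.33 FPKM (4.26 times), and the narrowest that of Aif1, from 10.34 to 19.20 FPKM (1.86 times).

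**Figure D1:**
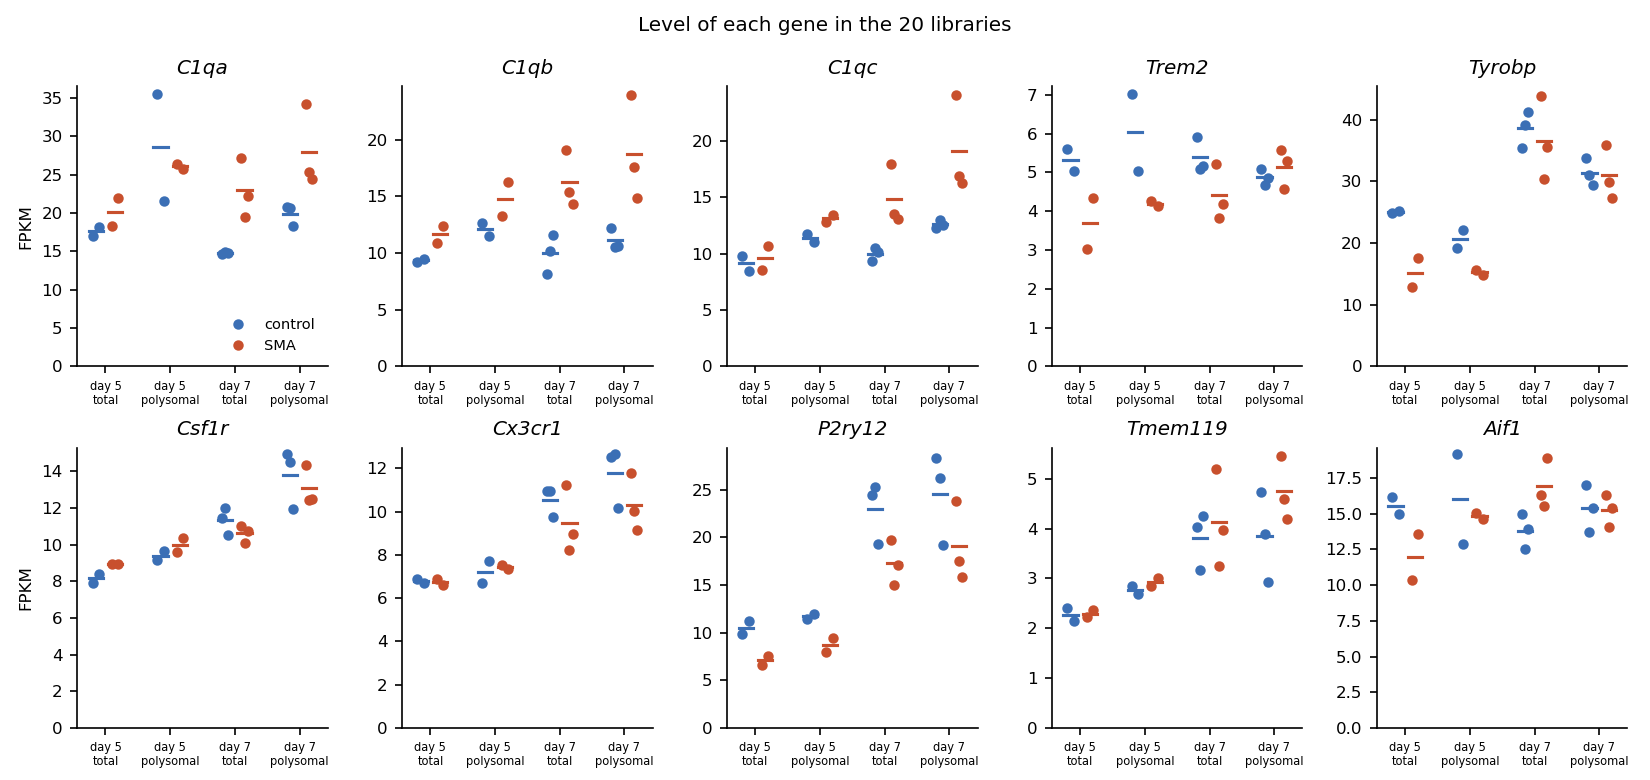
FPKM of each of the 10 genes (vertical axis, from 0) in every library, by day and RNA fraction, with control mice in blue and SMA mice in orange-red. Points are libraries and bars are group means (n = 2 per group at day 5, n = 3 at day 7). The C1q genes of SMA mice lie above all controls at day 7, and P2ry12 rises from day 5 to day 7 in both genotypes.

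Levels of other brain cells and of other macrophages set the frame for these values. Snap25, a synaptic gene of neurons, had 182.15 to 417.05 FPKM. Of the 9 genes listed for macrophages at the borders of the brain, 6 were tested. Their most abundant members were Stab1 and Pf4, with means of 19.3 and 10.9 FPKM over the 20 libraries. Both means lay within the range of those of the 10 genes, and Mrc1 was between 2.70 and 4.38 FPKM. These cells also use several of the 10 genes, and their share in the values was not tested. Ccr2, which marks blood monocytes, was at 0.13 FPKM or lower in every library. Of the 10 genes listed for blood leukocytes only the neutrophil genes S100a8 and S100a9 were tested.

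Smn1, the disrupted gene, was read over its whole length and had 8.61 to 16.70 FPKM in controls and 9.34 to 17.49 FPKM in SMA libraries, so it does not check the genotype labels. Xist and the Y-linked gene Ddx3y gave the same sex for the total and polysomal library of all 10 mouse numbers. Sex was unbalanced. At day 7, control mice 1 and 2 and SMA mouse 3 were female and control mouse 3 and SMA mice 1 and 2 male, and at day 5 SMA mouse 1 alone was female.

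The first comparison asked which of the 10 genes differed between late-symptomatic SMA and control brains in total RNA. The 3 C1q genes rose together, by 1.47 to 1.63 times, Aif1 rose by 1.22 times, and P2ry12 fell to 0.753 of the control level. The other 5 genes did not pass the threshold of an unadjusted limma p under 0.05, a cutoff at which the study called genes with other tests.

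C1qa was at 14.63, 14.90 and 14.79 FPKM in the control mice and at 27.23, 19.47 and 22.17 FPKM in the SMA mice. The controls were almost level and every SMA mouse lay above them. The means were 14.8 ± 0.136 and 23.0 ± 3.94 FPKM (SD, n = 3 each), a difference of 0.62 on the log2 scale (standard error 0.13, limma adjusted p = 0.299). C1qb was at 8.18, 10.15 and 11.56 FPKM in control and at 19.08, 15.38 and 14.34 FPKM in SMA mice. Again no SMA value reached down to a control value, and the difference was 0.71 on the log2 scale (standard error 0.17, limma adjusted p = 0.333). C1qc was at 9.34, 10.49 and 10.13 FPKM in control and at 18.01, 13.55 and 13.11 FPKM in SMA mice. The groups did not overlap here either, at 0.56 on the log2 scale (standard error 0.14, limma adjusted p = 0.346).

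Aif1 was at 15.01, 12.52 and 13.95 FPKM in control and at 16.34, 15.56 and 18.89 FPKM in SMA mice, a difference of 0.29 on the log2 scale (standard error 0.10, limma adjusted p = 0.489). P2ry12 was at 24.43, 25.28 and 19.25 FPKM in control and at 19.71, 15.03 and 17.08 FPKM in SMA mice, a difference of −0.41 on the log2 scale (standard error 0.15, limma adjusted p = 0.492). Its groups overlapped, because the male control mouse 3 lay below SMA mouse 1. Among the genes not past the threshold, Trem2 had a log2 fold change of −0.29 (standard error 0.14), Cx3cr1 of −0.16 (0.13), Tyrobp of −0.09 (0.15), Tmem119 of 0.10 (0.21) and Csf1r, at chr18:61100598-61132149, of −0.09 (0.07).

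Thus 4 of the 10 genes were called higher and 1 lower, where 4.84% and 4.7% of all tested genes were. With Benjamini-Hochberg adjustment over all tested genes limma called 0 of the 10, against 5 at the unadjusted threshold. The C1q calls held in all 18 alternatives, with a log2 fold change of 0.49 to 0.73 for C1qa, 0.57 to 0.82 for C1qb and 0.41 to 0.64 for C1qc. Those of Aif1 and P2ry12 did not. Aif1 lost its call in 5 alternatives, 4 of them the omission of 1 mouse (control mouse 2 or 3, SMA mouse 1 or 3). P2ry12 lost it in 7, 4 of them the omission of a mouse (control mouse 1 or 2, SMA mouse 2 or 3).

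In the translatome of the same stage the C1q genes were again higher and none of the other 7 genes was called. C1qa was at 20.83, 20.63 and 18.37 FPKM in control and at 34.22, 25.39 and 24.42 FPKM in SMA mice, a difference of 0.47 on the log2 scale (standard error 0.15, limma adjusted p = 0.38). C1qb was at 12.17, 10.53 and 10.63 FPKM against 23.95, 17.55 and 14.85 FPKM, a difference of 0.73 on the log2 scale (standard error 0.19, limma adjusted p = 0.322). C1qc was at 12.30, 13 and 12.53 FPKM against 24.11, 16.94 and 16.24 FPKM, a difference of 0.57 on the log2 scale (standard error 0.16, limma adjusted p = 0.358). For each chain the lowest SMA value was above the highest control value. P2ry12 had 28.33, 26.19 and 19.18 FPKM in controls and 23.82, 17.48 and 15.83 FPKM in SMA mice, which overlapped (log2 fold change −0.37, standard error 0.22, limma adjusted p = 0.597).

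The counts were 3 higher and 0 lower of 10, where 5.35% and 5.38% of all tested genes were called, and 0 of the 10 passed limma's adjusted p. C1qb and C1qc kept their calls in all 18 alternatives and C1qa in 16. C1qa lost its call without control mouse 3 (log2 fold change 0.42) and with sex as a term in the fit (0.46). P2ry12 was called lower in 5 of the 18, without control mouse 3, without SMA mouse 1, in 1 model over all libraries and with the replicate block, with or without the length correction.

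**Figure D2:**
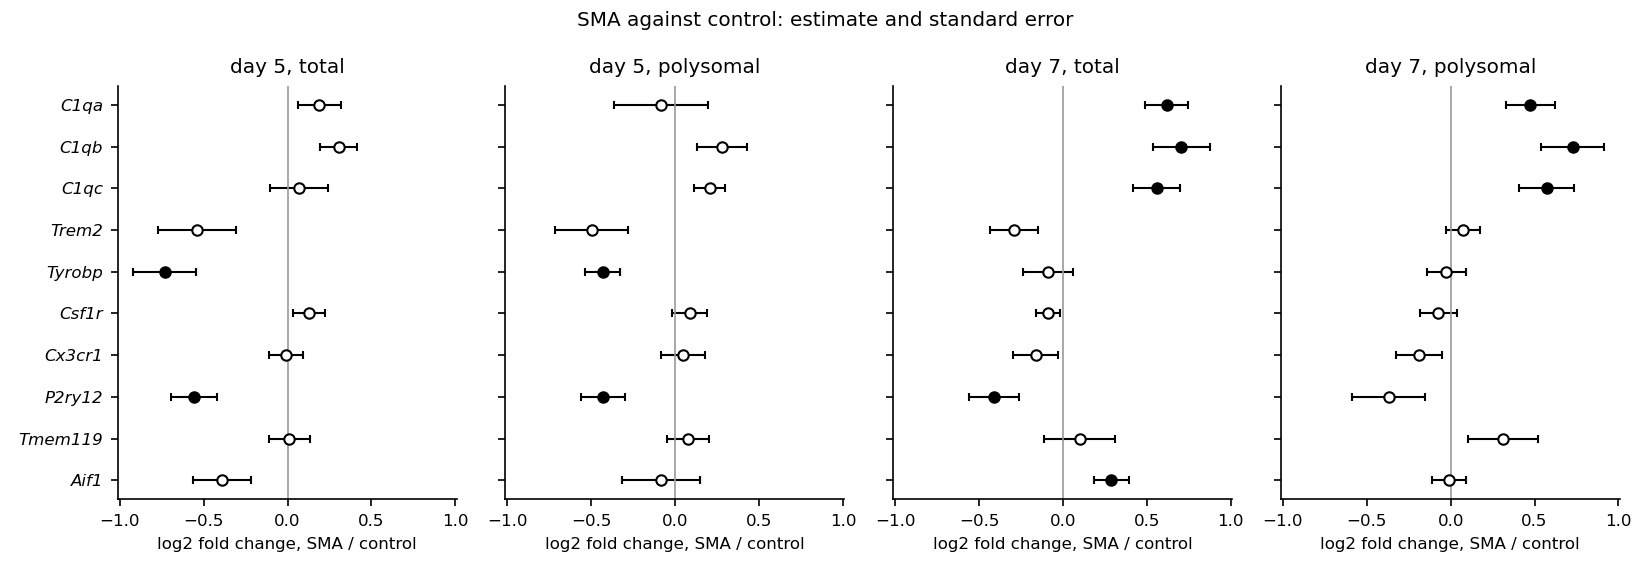
Log2 fold change of SMA over control (horizontal axis, on the log2(FPKM + 0.1) scale) for the 10 genes, 1 panel per stage and RNA fraction. Points are limma estimates (n = 2 mice per genotype at day 5, n = 3 at day 7), bars their standard errors, and filled points have an unadjusted p under 0.05. The C1q genes are filled and to the right of 0 in both day 7 panels, with values between 0.47 and 0.73.

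Within each sex the late-symptomatic C1q levels kept their order. In total RNA the females had 14.63 and 14.90 FPKM of C1qa in control mice and 22.17 FPKM in the SMA mouse, and the males 14.79 FPKM in the control mouse and 27.23 and 19.47 FPKM in SMA mice. For P2ry12 the females had 24.43 and 25.28 FPKM against 17.08 FPKM, while the male control, at 19.25 FPKM, lay between the male SMA mice at 19.71 and 15.03 FPKM. With sex as a term the total RNA calls of the C1q genes and Aif1 stayed past the unadjusted threshold, and P2ry12, at −0.35, did not pass it.

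Late-symptomatic SMA mouse 1 had the highest C1q values in each fraction. It also stood apart in the neutrophil genes, with 21.83 FPKM of S100a8 in total RNA, where the other SMA mice had 2.09 and 6.16 FPKM and the controls 0.53 to 1.72 FPKM. Summed over the 10 blood leukocyte genes, SMA libraries had 5.88 to 41.8 FPKM in late-symptomatic total RNA and control libraries 2.33 to 5.28 FPKM, and S100a8 and S100a9 were the most abundant of them. Without SMA mouse 1 the log2 fold changes in total RNA were 0.49 for C1qa, 0.59 for C1qb and 0.41 for C1qc, all past the unadjusted threshold. Without that mouse Trem2 and Cx3cr1 were also called lower, at −0.41 and −0.29, and P2ry12 was called lower in polysomal RNA as well, at −0.54. The summed border macrophage genes overlapped between genotypes in late-symptomatic total RNA, at 39.8 to 55.9 FPKM in controls and 42.5 to 48.1 FPKM in SMA libraries. Of the 6 tested, F13a1 was called higher in total RNA (0.33) and Lyve1 in polysomal RNA (0.47), and 0 lower in either. Endothelial and mural genes fell in both late-symptomatic fractions, 6 of 6 in each, and their summed level in total RNA was 74.2 to 87.8 FPKM in controls and 38.2 to 44.7 FPKM in SMA libraries. Of the erythroid, neuronal, astrocyte and oligodendrocyte lists, 5 genes each, 0 genes were called in late-symptomatic total RNA, with median log2 fold changes of −0.14, −0.09, 0.09 and 0.25, and of 5 proliferation genes 0 were called at a median of −0.76. The part of these cells and genes in the values of the 10 genes was not tested.

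At the early-symptomatic stage P2ry12 and Tyrobp passed the threshold, both lower in SMA mice and in both fractions. P2ry12 was at 9.85 and 11.20 FPKM in total RNA of control and at 6.65 and 7.58 FPKM in SMA mice, a difference of −0.56 on the log2 scale (standard error 0.14, limma adjusted p = 0.551). On polysomes it was at 11.41 and 11.99 FPKM against 7.98 and 9.39 FPKM, a difference of −0.43 on the log2 scale (standard error 0.13, limma adjusted p = 0.392). The groups did not overlap in either fraction.

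Tyrobp was at 24.86 and 25.15 FPKM in total RNA of control and at 12.81 and 17.57 FPKM in SMA mice, a difference of −0.73 on the log2 scale (standard error 0.19, limma adjusted p = 0.551). Its polysomal values were 19.25 and 22.14 FPKM against 15.66 and 14.87 FPKM, a difference of −0.43 on the log2 scale (standard error 0.11, limma adjusted p = 0.386). Trem2, the receptor that uses this adaptor, also had lower values in each SMA mouse than in any control, 3.03 and 4.34 FPKM against 5.61 and 5.03 FPKM in total RNA, but did not pass the threshold (log2 fold change −0.54, standard error 0.23, limma adjusted p = 0.551). The C1q genes had log2 fold changes of 0.19, 0.31 and 0.07 for C1qa, C1qb and C1qc in total RNA and of −0.09, 0.28 and 0.21 in polysomal RNA, none of them past the threshold. Border macrophage genes summed to 45.6 to 52.3 FPKM in total RNA of early-symptomatic control and to 27 to 34.7 FPKM in SMA libraries, with Stab1 or Pf4 the most abundant. The lower sum lay in these genes (Stab1 −1.36, Pf4 −0.44 on the log2 scale), 4 of the 6 tested had values above 0, at a median of 0.03, and 0 of the 6 were called. In polysomal RNA 2 of the 6 were above 0, at a median of −0.18, and Stab1 was called lower (−0.71). In total RNA S100a8 was higher in SMA mice (log2 fold change 1.79, standard error 0.12, limma adjusted p = 0.169). Endothelial and mural genes were called lower, 5 of 6 in total and 3 of 6 in polysomal RNA, with sums of 98.6 to 103 FPKM in total RNA of controls and 50.4 to 51.2 FPKM of SMA mice and Cldn5 the most abundant. Proliferation genes were called lower too, 2 of 5 in total and 4 of 5 in polysomal RNA, with sums of 40.1 to 63.1 FPKM against 25.4 to 28.8 FPKM in total RNA. In total RNA the astrocyte gene Slc1a2 (0.66) and the oligodendrocyte lineage genes Pdgfra (0.30) and Cspg4 (0.50) were called higher and the globin gene Hba-a2 (−0.73) lower, 1, 2 and 1 of 5 genes in their lists. Astrocyte genes summed to 266 to 320 FPKM in total RNA of controls and 356 to 375 FPKM of SMA mice, with Slc1a3 or Slc1a2 the most abundant. Of 5 neuronal genes 0 were called in total RNA. In polysomal RNA they summed to 940 to 1165 FPKM in controls and 2067 to 2073 FPKM in SMA mice. There 1 was called higher, Tubb3, the most abundant in SMA mice. It was listed at 0 in the 2 control polysomal libraries, so no fold is given. The part of these cells and genes in the lower P2ry12 and Tyrobp values was not tested.

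Early-symptomatic counts were 0 higher and 2 lower of 10 in each fraction, where 4.36% of all tested genes were called higher and 3.89% lower in total RNA, and 5.65% and 6.82% in polysomal RNA. Limma's adjusted p called 0 of the 10 in either fraction, and with 2 mice against 2 an exact permutation test of a single gene cannot go below 0.333. The P2ry12 calls were lost on omission of 1 mouse in 3 of 4 cases in total and 4 of 4 in polysomal RNA, and those of Tyrobp in 2 of 4 and 3 of 4. The longest transcript had 597 bases for Tyrobp, 875 bases for Aif1, 1040 to 1203 bases for the C1q genes and 2344 bases for P2ry12. The values also moved with a correction for transcript length, and the cause was not tested. After it the polysomal P2ry12 and Tyrobp values were −0.34 and −0.31 and no longer called, C1qb and C1qc were called higher at 0.46 and 0.38, and in total RNA C1qa and C1qb were called higher at 0.42 and 0.53.

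The ratio of the summed C1q chains to P2ry12 sets genes called in opposite directions in late-symptomatic total RNA side by side, as a description, since these genes were chosen for it with their values known. In total RNA it was 3.67 and 3.23 in early-symptomatic control and 5.68 and 5.95 in SMA mice, and 1.32, 1.41 and 1.90 in late-symptomatic control and 3.26, 3.22 and 2.91 in SMA mice. In polysomal RNA the early-symptomatic ratios were 5.25 and 3.68 in controls against 6.58 and 5.91, and the late-symptomatic ratios were 1.60, 1.69 and 2.17 in controls and 3.45, 3.43 and 3.51 in SMA mice. Every SMA library had a higher ratio than every control library of its stage and fraction, and the ratio of each genotype was lower at day 7 than at day 5.

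**Figure D3:**
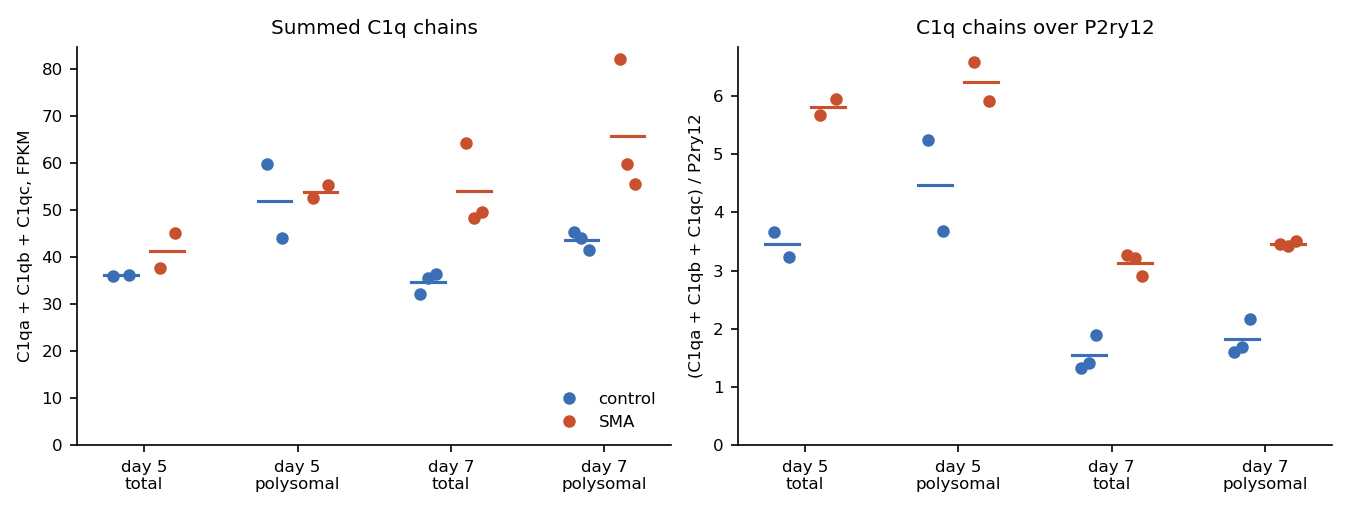
Left, the summed FPKM of C1qa, C1qb and C1qc in each library. Right, that sum divided by the FPKM of P2ry12. Points are libraries (control blue, SMA orange-red), bars group means, and the vertical axes start at 0. In total RNA the ratio is at least 2.91 in every SMA library and at most 1.90 in the late-symptomatic controls.

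The proportions of the chains varied between libraries. C1qb over C1qc was between 0.81 and 1.27 in the 20 libraries, with a median of 1.04, and C1qa over C1qb between 1.27 and 2.80, with a median of 1.69 and 2.00 as its next highest value. The highest of the latter came from the polysomal library of early-symptomatic control mouse 1, with 35.53 FPKM of C1qa, 19.20 FPKM of Aif1 and 7.03 FPKM of Trem2, each the highest value of its gene. Without that mouse the early-symptomatic polysomal difference of C1qa turned from −0.09 to 0.27, and without control mouse 2 it was −0.44, both past the unadjusted threshold (1 control against 2 SMA mice, with the lone control assumed to vary like the others).

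Whether the 10 genes changed in translation efficiency (TE), the polysomal relative to the total level, was tested as the interaction of genotype and fraction. At the early-symptomatic stage 0 of the 10 had altered TE, where 1.26% of all tested genes had increased and 1.06% reduced TE, and log2 ΔTE ran from −0.28 for C1qa (standard error 0.34) to 0.30 for Aif1 (standard error 0.31). At the late-symptomatic stage limma again called 0 of the 10, where 1.09% and 0.977% of all tested genes were called. The changes of the C1q genes were −0.15 for C1qa (standard error 0.20), 0.02 for C1qb (0.27) and 0.01 for C1qc (0.22), so their rise in the transcriptome and in the translatome differed by less than the error. With the mouse number as a block, 2 genes were called late-symptomatic, where 2.05% of all tested genes were called higher and 2.28% lower. Trem2 had a log2 ΔTE of 0.36 (standard error 0.17 without the block) and Aif1 one of −0.30 (standard error 0.15 without the block).

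The values per mouse show these shifts. For Trem2, polysomal minus total log2(FPKM + 0.1) was −0.21, −0.12 and −0.09 in late-symptomatic control mice and 0.09, 0.25 and 0.33 in SMA mice. For Aif1 it was 0.18, 0.13 and 0.14 in control mice and −0.0035, −0.14 and −0.29 in SMA mice. Genotypes did not overlap for either gene. Both genes were chosen by their calls under the block on these same values, so this is a description.

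In control mice the polysomal level itself was compared with the total level. C1qa was higher on polysomes at each stage, by 0.65 on the log2 scale early (standard error 0.24, limma adjusted p = 0.16) and 0.43 late (standard error 0.14, limma adjusted p = 0.0834). The early value of C1qa was the mean of 1.06 in mouse 1 and 0.25 in mouse 2, and it lost its call on the omission of control mouse 1 or of either SMA mouse. C1qb was called early (0.36, standard error 0.13, limma adjusted p = 0.155) and Csf1r late (0.28, standard error 0.09, limma adjusted p = 0.0872). Over the alternatives C1qb kept its early call in 11 of 15 and Csf1r its late call in 15 of 17. Thus 2 of 10 genes were higher and 0 lower at each stage, where 14.4% of all tested genes were higher and 13.3% lower early and 17% and 11.6% late, shares near the background. With the mouse number as a block C1qb alone was called early, and late C1qa, C1qc (0.33), Csf1r and Aif1 (0.15) were higher and Tyrobp (−0.30) lower. Under that block 11.9% of all tested genes were higher and 11.5% lower early, and 22.4% and 13.5% late. The adjusted p-values given here are from the limma fit without the block.

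Over all 10 mouse numbers, of either genotype, C1qa, C1qc and Csf1r were higher in the polysomal library in 10 of 10 and Tyrobp in 1 of 10. C1qb, Cx3cr1 and Tmem119 were higher in 9 of 10, P2ry12 in 8, and Aif1 and Trem2 in 6. The median difference was 0.35 for C1qa, 0.33 for C1qc, 0.21 for Csf1r and −0.26 for Tyrobp. In control mice the median over all tested genes was 0.02 early and 0.05 late. The exception for Tyrobp was early-symptomatic SMA mouse 1, at 12.81 FPKM in total and 15.66 FPKM in polysomal RNA.

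**Figure D4:**
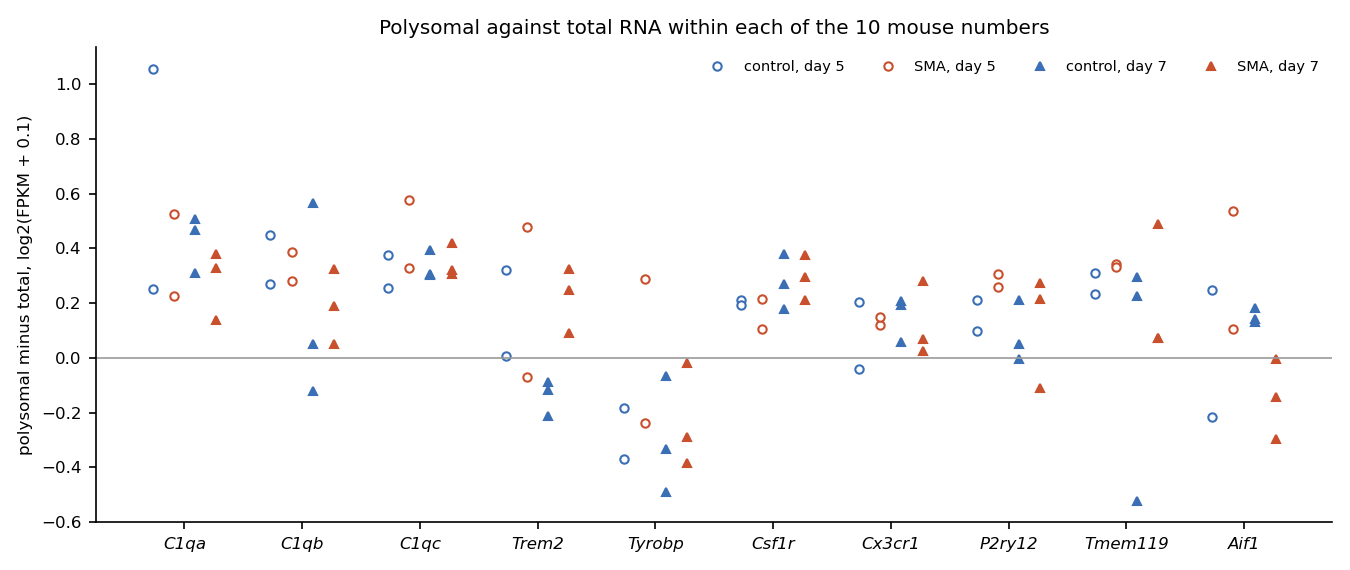
Polysomal minus total log2(FPKM + 0.1) within each of the 10 mouse numbers, by gene. Open circles are day 5 and filled triangles day 7, with control mice in blue and SMA mice in orange-red. C1qa, C1qc and Csf1r lie above 0 in every mouse and Tyrobp below it in all but 1, and for Trem2 the day 7 controls lie between −0.21 and −0.09.

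Between day 5 and day 7 P2ry12, Cx3cr1, Csf1r and Tyrobp rose in both genotypes and both fractions. The brains of each day may also have been prepared apart, which cannot be told from age. Sex was not a term in the day fits, although both day 5 control mice were male and day 7 control mice 1 and 2 female. In control total RNA, P2ry12 rose from 10.5 ± 0.955 FPKM (SD, n = 2) to 23.0 ± 3.26 FPKM (SD, n = 3), a difference of 1.11 on the log2 scale (standard error 0.16, limma adjusted p = 0.00434, higher in 3 of 3 late mice). Tmem119 rose by 0.71 (standard error 0.20, limma adjusted p = 0.0445), Cx3cr1 by 0.63 (0.13, adjusted p = 0.0143), Tyrobp by 0.62 (0.18, adjusted p = 0.0437) and Csf1r by 0.47 (0.07, adjusted p = 0.00614). These 5 genes passed the adjusted threshold. Neuronal genes rose as well, 4 of 5 in control total RNA, all past limma's adjusted p, at a median of 0.60, beside −0.03 for all tested genes. Endothelial and mural genes were called lower in 3 of 6. The part of these genes in the rise of the 10 genes was not tested. The C1q genes did not pass the adjusted threshold in control mice, at −0.25 for C1qa, 0.07 for C1qb and 0.13 for C1qc, nor did Aif1 at −0.17 and Trem2 at 0.02.

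In control polysomal RNA, 4 of these 5 genes rose, P2ry12 by 1.04, Cx3cr1 by 0.70, Tyrobp by 0.60 and Csf1r by 0.54, all past limma's adjusted p, while Tmem119 was at 0.44 (standard error 0.20, adjusted p = 0.116). Neuronal genes rose there too, 5 of 5, all past limma's adjusted p, at a median of 1.13. Among them Tubb3 was listed at 0 in 2 early-symptomatic control libraries. Endothelial and mural genes were called lower in 2 of 6. Of all tested genes 18.6% were higher and 19.1% lower at day 7 in control total RNA, and 23.5% and 26% in control polysomal RNA, and 0 of the 10 genes were called lower in either.

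In SMA mice 8 of the 10 genes were called higher at day 7 in total RNA, 7 of them past limma's adjusted p, and 6 in polysomal RNA, 5 of them past it. Of all tested genes 19.8% were higher and 21.9% lower in SMA total RNA, and 20.8% and 19.4% in SMA polysomal RNA. In total RNA the largest rises were those of Tyrobp, from 15.2 ± 3.37 FPKM (SD, n = 2) to 36.6 ± 6.86 FPKM (SD, n = 3), and of P2ry12, from 7.12 ± 0.658 to 17.3 ± 2.35 FPKM, each a log2 fold change of 1.26 (limma adjusted p = 0.00387 and 0.00258). Cx3cr1 (0.47), Tmem119 (0.80), Csf1r (0.25) and Aif1 (0.51) rose too, while Trem2 was at 0.27 and C1qa at 0.18. C1qc rose by 0.62 (standard error 0.16, limma adjusted p = 0.0282) and C1qb by 0.47 (standard error 0.17, limma adjusted p = 0.0735). In SMA polysomal RNA P2ry12 rose by 1.11, Tyrobp by 1.01, Tmem119 by 0.67, C1qc by 0.51, Cx3cr1 by 0.46 and Csf1r by 0.38, and C1qc was the gene not past limma's adjusted p. The rise of P2ry12 in total RNA was 0.15 larger in SMA than in control mice (standard error 0.22, limma adjusted p = 0.783), a difference within its error. Neuronal genes rose in SMA total RNA as well, 4 of 5, all past limma's adjusted p, at a median of 0.70. Endothelial and mural genes were called lower there in 3 of 6. The part of these genes in the values of the 10 genes was not tested. The day and the genotype comparisons share the same libraries.

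Whether the SMA effect itself differed between the stages was tested as the interaction of genotype and stage. In total RNA it was more positive at day 7 for Aif1 (0.68, standard error 0.20, limma adjusted p = 0.486) and Tyrobp (0.64, standard error 0.25, limma adjusted p = 0.486), 2 of 10 genes, where 4.55% of all tested genes were called more positive and 5.6% more negative. In polysomal RNA it was so for Trem2 (0.57, standard error 0.21, limma adjusted p = 0.337), 1 of 10, where the shares were 6.81% and 6.86%. Limma's adjusted p called 0 of the 10 in either fraction. The C1q genes did not pass the threshold, with 0.43, 0.40 and 0.49 for C1qa, C1qb and C1qc in total RNA (standard errors 0.19, 0.24 and 0.23), so their late-symptomatic rise was not shown to differ from the early-symptomatic values.

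**Figure D5:**
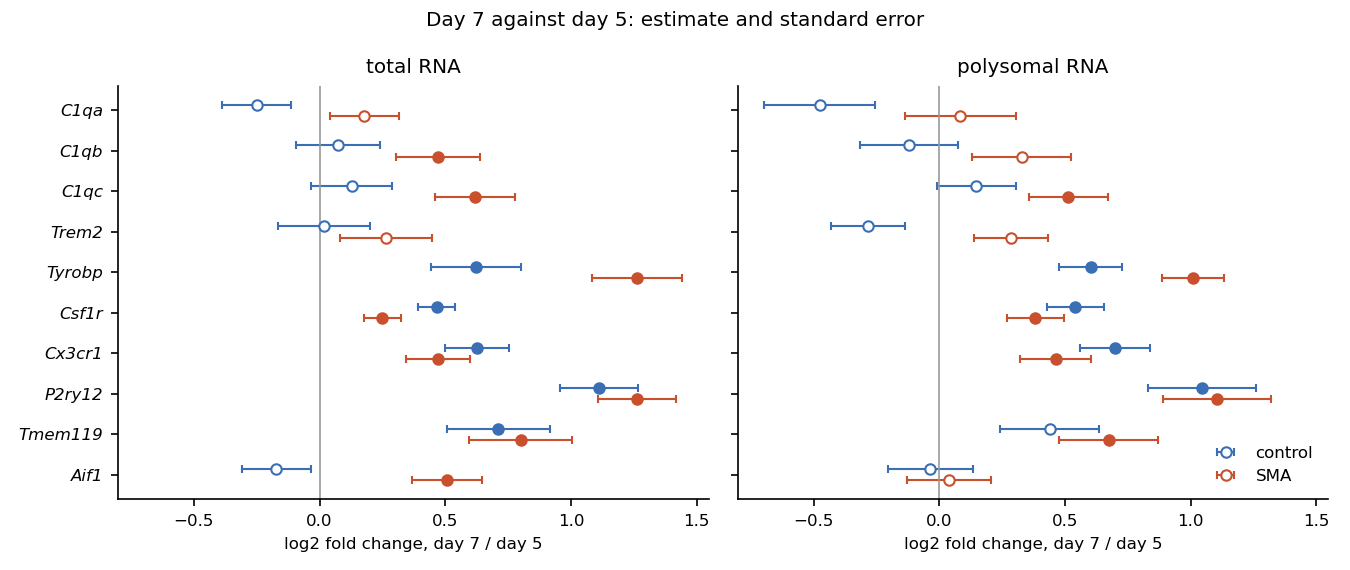
Log2 fold change of day 7 over day 5 (horizontal axis, on the log2(FPKM + 0.1) scale) for the 10 genes in total RNA (left) and polysomal RNA (right), with control mice in blue and SMA mice in orange-red. Points are limma estimates with their standard errors, and filled points have an unadjusted p under 0.05. P2ry12 lies between 1.04 and 1.26 in all 4 comparisons, and of the C1q genes C1qc is filled in both panels and C1qb in the left one, in SMA mice alone.

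Among 30 further microglial genes 25 were tested. The shares of all tested genes called higher and lower were 4.84% and 4.7% in late-symptomatic total and 5.35% and 5.38% in polysomal RNA. Early-symptomatic, they were 4.36% and 3.89% in total and 5.65% and 6.82% in polysomal RNA. Late-symptomatic, Mertk was called higher and Gpr34, Olfml3 and P2ry13 lower in total RNA, and Mertk higher and Gpr34, P2ry13 and Adgre1 lower in polysomal RNA, with medians over the 25 genes of −0.17 and −0.10, beside 0.00 for all tested genes in both. Mertk, a receptor for the uptake of dying cells that astrocytes use as well, was at 2.30, 2.74 and 2.29 FPKM in total RNA of late-symptomatic control and at 5.19, 3.96 and 3.70 FPKM in SMA mice. It rose in each stage and fraction, with log2 fold changes from 0.77 to 0.89. Gpr34, a lipid receptor of microglia, was at 7.97, 8.53 and 5.82 FPKM in control and at 5.36, 5.06 and 4.90 FPKM in SMA mice, and fell in each stage and fraction, by 0.52 in late-symptomatic total RNA (standard error 0.16, limma adjusted p = 0.436). P2ry13, a purine receptor of the same family as P2ry12, fell by 0.46 in that comparison (standard error 0.16, limma adjusted p = 0.485).

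Early-symptomatic, Mertk was higher and Gpr34 and Fcer1g lower in total RNA, with a median of −0.25 over the 25 genes, beside 0.01 for all tested genes. In polysomal RNA 2 were higher and 3 lower, Gpr34 and P2ry13 among them, with a median of −0.29, and 1 of the higher, Irf8, was listed at 0 in both control libraries, so no fold is given. The level of the ligands was tested too. Of Csf1, Il34, Cx3cl1 and Tgfb1, which code for ligands that microglia depend on, 1 was called in the comparisons of SMA with control mice, Il34, lower in late-symptomatic polysomal RNA (−0.43, standard error 0.12, limma adjusted p = 0.358). Of 13 genes listed for signalling below DAP12, 5 were tested, and 2 were higher in late-symptomatic polysomal RNA, among them the phosphatase gene Ptpn6 (0.40, standard error 0.10, limma adjusted p = 0.301). In total RNA Ptpn6 ran the other way without passing the threshold (−0.95, standard error 0.37, limma adjusted p = 0.524), and its late-symptomatic TE was called higher (1.35, standard error 0.41, adjusted p = 1).

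Of 36 other complement genes 16 were tested, and late-symptomatic total RNA had 5 called higher and 3 lower, with a median of 0.07. Of all tested genes 4.84% were called higher and 4.7% lower in that comparison. C2 and C4b, which are cleaved downstream of C1q in the classical pathway by C1s, the protease that C1r activates, were among the higher ones, while the protease genes C1ra and C1s1 were too low to be tested. C2 was at 1.77, 1.51 and 1.37 FPKM in control and at 2.70, 2.36 and 2.00 FPKM in SMA mice (log2 fold change 0.57, standard error 0.15, limma adjusted p = 0.365), and C4b at 0.61, 0.84 and 1.03 FPKM against 1.78, 1.27 and 1.80 FPKM (0.90, standard error 0.22, adjusted p = 0.344). Both sets of values were free of overlap. The mean of C4b over the 20 libraries was 1.13 FPKM, near the 1 FPKM required for testing. C4b passed that filter through its late-symptomatic SMA values, so its calls in either fraction are a description. The inhibitors Serping1 (0.36) and Susd4 (0.16) were higher too, and the membrane inhibitor Cr1l was lower (−0.16), as were Cd93 (−0.91), which endothelial cells use, and Vtn (−0.33).

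In late-symptomatic polysomal RNA 4 were higher (C2, C4b, Masp1 and Susd4) and 2 lower (Cd93 and Vtn), with a median of 0.06. There 5.35% of all tested genes were called higher and 5.38% lower. C2 was at 2.50, 1.54 and 1.80 FPKM in control and at 2.65, 4.02 and 3.93 FPKM in SMA mice (log2 fold change 0.83, limma adjusted p = 0.365), and C4b at 1.19, 1.02 and 0.95 FPKM against 2.13, 1.65 and 1.58 FPKM (0.70, adjusted p = 0.251). C3, the central component, was too low to be tested, at 0.39, 0.36 and 0.98 FPKM in late-symptomatic total RNA of control and 0.62, 0.36 and 0.33 FPKM of SMA mice. Early-symptomatic, 1 was higher and 2 lower in total RNA and 3 higher and 2 lower in polysomal RNA, with medians of 0.13 in each. Cd93 and Vtn were the lower ones in each fraction. Of all tested genes 4.36% were higher and 3.89% lower in early-symptomatic total RNA, and 5.65% and 6.82% in polysomal RNA.

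Of 15 genes linked to reactive microglia 12 were tested. The shares of all tested genes called in each comparison were those given for the complement genes. Late-symptomatic, 1 was higher in each fraction, Apoe, with a difference of 0.31 on the log2 scale (standard error 0.09, limma adjusted p = 0.405) in total RNA and one of 0.38 (standard error 0.13, adjusted p = 0.428) on polysomes, and 0 were lower. Apoe, which carries lipids and is made largely by astrocytes, had a mean of 779 FPKM in controls and 963 FPKM in SMA mice in total RNA. Early-symptomatic, 0 were higher, and Cd9 and Cd63 were lower in total and Cd9 in polysomal RNA. None of the 12 listed inflammatory genes, Tnf, Il1b and Il6 among them, reached the mean of 1 FPKM required for testing, and their summed level overlapped between genotypes late-symptomatic, at 3.33 to 4.76 FPKM in controls and 2.68 to 5.13 FPKM in SMA total RNA.

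Over the 20 libraries the genes fell into pairs and groups by their log2(FPKM + 0.1), given as a description, since libraries share mice and the days differ. Pearson's r was 0.93 for Cx3cr1 with P2ry12, 0.91 for Cx3cr1 with Csf1r, 0.90 for C1qb with C1qc and 0.89 for P2ry12 with Tyrobp, but 0.08 for P2ry12 with C1qb and −0.15 for P2ry12 with C1qa. Within groups, with the group means taken off, r was 0.945 for P2ry12 with Csf1r, 0.80 for C1qb with C1qc, and 0.50 and 0.54 for P2ry12 with C1qb and C1qa. The protein-coding genes whose pattern was most like the mean of the 10 genes were Ensa (r = 0.94), S100a1 (0.93), Slc9a3r1 (0.93), Fxyd1 (0.92), Phpt1 (0.92), Cpe (0.91), Ldhb (0.91) and Chchd10 (0.91), over the 20 libraries.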

How the data were processed

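Total cytoplasmic and polysomal RNA of mouse brains was sequenced in 20 libraries (8 groups of genotype, stage and fraction), prepared with a stranded total RNA kit. The authors deposited 1 table of FPKM values rounded to 2 decimals, made, by the submitters' processing notes and the methods, with TopHat2 2.0.14 and Cufflinks 2.2.1 at default settings on GRCm38.p4 with GENCODE M6. All 20 columns could be mapped to samples. Whole reads could not be recovered from the deposited FPKM, so depth and counting error are unknown. Library sums were 790791 to 997685 FPKM in total and 571462 to 657670 FPKM in polysomal RNA.

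Values were tested as log2(FPKM + 0.1) with limma 3.58.1 in R 4.3.3 (eBayes with a trend) over the 15247 genes averaging 1 FPKM or more, and fold changes are on that scale, which understates those of low genes. A gene was called at an unadjusted p under 0.05, with Benjamini-Hochberg adjusted values beside it. Genotype fits used their 2 groups, and day, translation efficiency and fraction fits all 4 groups of a fraction or stage. The scripts were tested on simulated data. P-values measure the spread between these mice, and an exact permutation test of 3 against 3 cannot go below 0.1. The share of all tested genes whose groups did not overlap was not computed, so statements of overlap only describe the named genes.

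The 10 genes and all gene lists (170 genes, the 10 included, all in the table) were chosen with earlier results of these data known, and no set test was run. Any of the 10 genes could be named in any comparison, list genes where they were called (a few are not reported here), and the 8 genes of the most alike pattern by Pearson's r. Mrc1, Ccr2, Snap25 and C3 were named after their values were seen.

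Total and polysomal libraries of 1 number were taken as the same mouse. Sex agreed in 10 of 10 numbers, and over 8485 protein-coding genes with at least 5 FPKM in every library their deviations from the group means correlated at 0.2243 to 0.4934 late-symptomatic and at 0.1314 (control) and 0.0294 (SMA) early-symptomatic. Over all tested genes these values were −0.0391 to 0.1090. Alternatives changed the pseudocount, filter, scaling, variance model, samples, block, length correction and threshold and left out each mouse. A sex term was added after seeing the data. Promoter sequences came from RefSeq (GRCm38.p6), with a motif search on both strands, and gene positions from GENCODE M21.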

Additional observations from a re-analysis of the deposited data

Results flagged for a closer look

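The SMA effect on 3 genes differed between day 7 and day 5 by a test of the difference itself, all at an unadjusted p. In total RNA these were 2 of 10 genes, where 4.55% of all tested genes were called more positive and 5.6% more negative. In polysomal RNA it was 1 of 10, where the shares were 6.81% and 6.86%, so that count was near the background. For Aif1 in total RNA the difference was 0.68 on the log2 scale (limma adjusted p = 0.486), from −0.39 at day 5 to 0.29 at day 7. All 3 late-symptomatic SMA mice were above every control of day 7, and both early-symptomatic SMA mice were below every control of day 5. The difference was past the threshold in 21 of 21 alternatives. For Tyrobp in total RNA it was 0.64 (limma adjusted p = 0.486), from −0.73 to −0.09, and past the threshold in 11 of 21. For Trem2 in polysomal RNA it was 0.57 (limma adjusted p = 0.337), from −0.50 to 0.07, and past it in 14 of 21. In polysomal RNA the difference for Aif1 was 0.08 (limma adjusted p = 0.907). What lies behind these differences was not tested.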

How the results depend on the processing

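With an adjusted p under 0.05 the main limma fits called 0 of the 10 genes in the 4 genotype comparisons. The count was also 0 in the 2 tests of genotype by stage and the 2 comparisons of polysomal with total RNA. The main fits of polysomal against total RNA did not pair libraries by mouse number. With the replicate block, which does, 3057 of 15247 tested genes passed the adjusted p in late-symptomatic controls, against 2070. Adjusted values of the 10 genes under the block are not given. The early-symptomatic count in total RNA was 4 (0 higher) in 1 model over all libraries and 4 (2 higher) with the length correction, also together with the block, against 2. Of all tested genes that model called 19.8% and the length correction 7.54%, against 8.25%. The polysomal against total count in early-symptomatic controls was 4 without a filter and with quantile normalization and 1 in 1 model, against 2, and the late-symptomatic one 4 for genes above 0 in every library. Early, 6161 of 34288 tested genes were called without a filter, 4098 of 15247 with quantile normalization and 5601 in 1 model, against 4222. Late, 4189 of 14335 genes above 0 in every library were called, against 4370 of 15247 in the main fit. The genotype by stage count was 4 of 10 in total RNA (main value 2) and 2 in polysomal RNA (main value 1) for genes above 0 in every library, 2 in polysomal RNA with equal medians, and 1 in total RNA with the length correction. Of the 14335 genes above 0 in every library 1462 were called in total and 1968 in polysomal RNA. The main fit called 1547 and 2084 of 15247. With equal medians 2270 were called in polysomal RNA, and with the length correction 1024 in total RNA. The late-symptomatic TE count was 1 with the length correction, against 0, where 308 of 15247 tested genes were called, against 315. The cause of these shifts was not tested.

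With the replicate block, which pairs libraries by number, the late-symptomatic TE count was 2, the polysomal against total counts 1 early and 5 late, and the genotype by stage counts 1 in total and 2 in polysomal RNA. Together with the length correction these were 2, 1, 4 and 1 in total RNA. Of all 15247 tested genes the block called 659 for late-symptomatic TE, and 3568 early and 5475 late for polysomal against total. For genotype by stage it called 1360 in total and 2282 in polysomal RNA. With the length correction as well these were 620, 4230, 5131 and 974 in total RNA. Control and SMA mice share only a number, with correlations of −0.1389 to 0.2228, and there the block left counts of 2 and 2 early-symptomatic and 4 and 4 late-symptomatic. Under it P2ry12 lost its late-symptomatic call in total RNA and gained one in polysomal RNA.

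Leaving out 1 mouse gave counts of 0 to 4 (total) and 0 to 3 (polysomal) for the early-symptomatic and 3 to 6 and 3 to 4 for the late-symptomatic genotype comparison. They were 0 to 1 for each TE test, 0 to 1 and 0 to 4 for polysomal against total, 1 to 4 and 0 to 2 for genotype by stage, 4 to 6 and 4 to 7 for day 7 in control and 5 to 9 and 3 to 7 in SMA mice. Where 1 mouse was left in a day 5 group, it was assumed to vary like the others. Among values past the threshold, as reported or under the alternative, 1 changed sign, early-symptomatic polysomal C1qa at 0.27 without control replicate 1, which with the other omissions spans −0.44 to 0.27. Values that did not pass it changed sign too, such as the early-symptomatic TE of Trem2, from −0.23 to 0.32. Over the 10 genes and all alternatives 2356 values kept their side of the threshold and moved by less than their error or stayed called, 96 passed the threshold anew, 72 lost it and 35 moved without a call. The sex term, chosen after seeing the data, called 4 genes in total and 2 in polysomal RNA late-symptomatic. Unknown depth limits all values of low genes.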
